A study of Rattus norvegicus with 32 samples.

Results

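Cecal ligation and puncture (CLP) ties off and pierces the cecum so that gut bacteria leak into the abdomen, and it is a standard way to produce sepsis in rats. The comparison described here is CLP against sham surgery in the left ventricle of male (XY) Wistar rats. Its members are the 10 arrays whose labels give male sex and either sham surgery (5 rats) or CLP with no further drug (5 rats), of 32 arrays in the series. They were chosen by those labels, and no measured value was used. The other arrays come from male rats given CLP and landiolol, a short-acting beta-1 blocker (6 rats), and from the same 3 groups of female (XX) rats (5, 5 and 6).

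Rats were 9 to 12 weeks old. Every rat received buprenorphine against pain before surgery, and the infusion, which for CLP rats without landiolol was saline begun after surgery, was matched in volume between the groups and held no antibiotics. Hearts were imaged in the living animal, then perfused outside the body on a Langendorff apparatus, and were frozen at 20 h. Sham and CLP hearts therefore share the analgesic, the infusion, the imaging and the perfusion, and all arrays describe hearts after perfusion. No animal of the study died early, so the CLP group holds survivors of 20 h. That the tissue was heart muscle was checked against 12 cardiomyocyte markers, which as a list do not tell the left ventricle from other chambers. All 12 were well above background on every array, and limma called 0 of them between the groups (1 at an unadjusted p under 0.05, and 1 by SAM, the significance analysis of microarrays). Of 7 atrial markers, 6 were well above background on all 5 sham arrays and 5 on all 5 CLP arrays. Their mean log2 differences from the sham mean ran from -0.38 to 0.54 in sham and from -1.91 (CLP 1) to 0.10 in CLP. The label of left ventricle was therefore not verified. Kdm5d, a Y-linked gene, read 6.77 to 7.86 (log2 signal) in sham and 7.52 to 8.19 in CLP and was well above background on all 10 arrays.

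In sepsis, bacterial products and host cytokines reach the heart through the blood, and the pump often weakens for a time without much death of muscle cells. Toll-like receptors and the receptors of interleukin-1 and tumour necrosis factor signal through NF-kappaB, and interleukin-6 signals through JAK kinases to STAT3, which drives acute-phase genes. The working heart depends on fatty acid oxidation in mitochondria, on calcium released from the sarcoplasmic reticulum, on potassium currents that end each beat and on adrenergic signalling. Each of these systems was followed below as a list of genes, and each list is given by how many tested members were called higher or lower and by its median.

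RNA was labelled with 1 dye and hybridised to Agilent whole-genome rat arrays. Values are log2 signals, quantile-normalised over the 16 XY arrays, so a difference of 1 is a doubling. A log2 fold change is the CLP mean minus the sham mean, with its standard error (SE), and n is 5 per group throughout. A gene was called when limma's adjusted p (Benjamini-Hochberg over all probes kept) was at or under 0.01. Sham arrays had 37254 to 43155 spots well above background and CLP arrays 37452 to 38336. Correlations between arrays were 0.960 to 0.988 within sham, 0.965 to 0.988 within CLP and 0.944 to 0.976 between the groups. Sham 1 and CLP 1 were the arrays least like their own group (mean correlations of 0.969 and 0.970). The 10 arrays lay on both slides that hold the XY arrays, with sham 1, sham 2 and CLP 1 to 3 on the first slide and the rest on the second. Array numbers are names only. Another background correction, normexp with an offset of 50, pulls dim signals towards each other, and where it moved the printed log2 fold change of a called gene by more than 1.5 times, its value is given as "with normexp". A smaller move of a large log2 value can still be a large change of the fold. The value is therefore also given for Saal1, Mmp24 and Nmrk2, which moved by less than 1.5 times. In bulk tissue, fewer cells of a type and less RNA per cell cannot be told apart.

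Of 25864 probes tested, 1002 were higher and 1018 were lower in CLP. With each gene described by its brightest kept probe, 588 of 13733 genes were called higher (4.28%) and 696 were called lower (5.07%), and these shares are the background against which each list below is read. The sham and CLP arrays did not overlap for 1964 genes (14.3%). The median log2 fold change over all genes was -0.02, while it was 1.09 among genes called higher and -1.03 among those called lower. The rises reached further than the falls. At least a 4-fold difference was found for 101 genes called higher and 58 called lower, and at least a 16-fold difference for 13 and 2. All 1284 called genes differed in the same direction on both slides, but they were called on these same arrays, so this is no separate test. By any of its probes, a gene was called in 1430 cases, and this number was 950 without CLP 4 and at most 1682, which was reached without CLP 1. Of 467 called genes with several probes, 150 had every probe called in 1 direction.

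**Figure D1:**
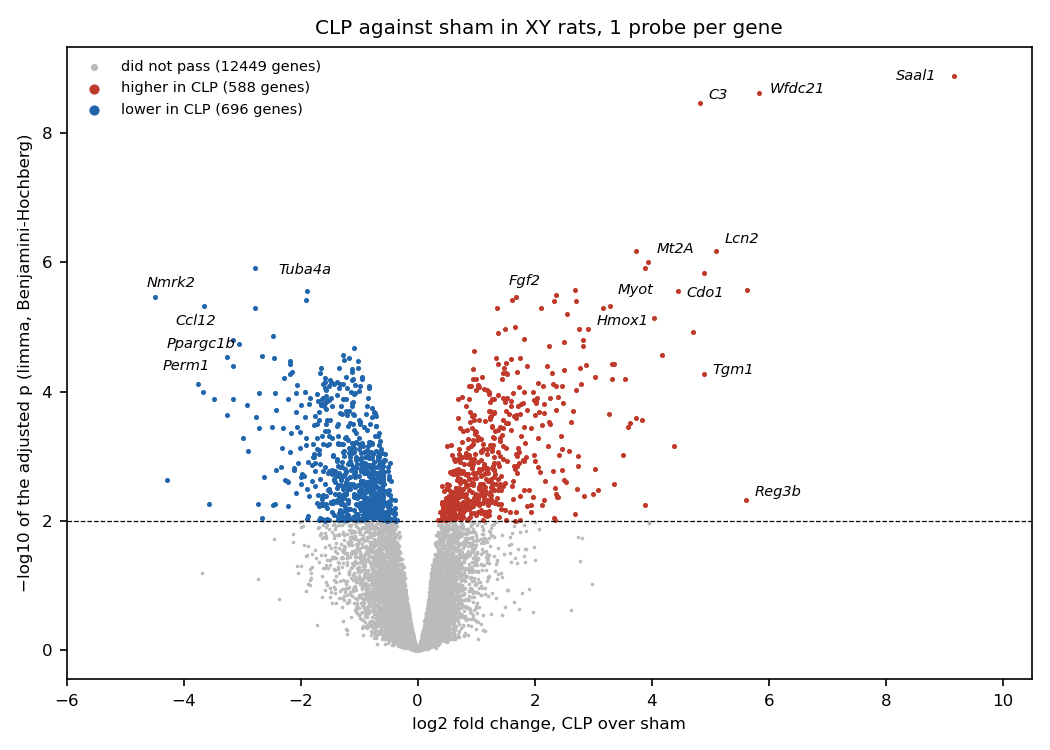
Each point is 1 of 13733 genes. The horizontal axis is the log2 fold change of CLP over sham in XY rats and the vertical axis is -log10 of limma's adjusted p, with a dashed line at an adjusted p of 0.01. Red points (588 genes) were called higher and blue points (696 genes) lower, and the red points extend further from 0 than the blue ones.

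Saal1, whose probe rose most of all genes described, read 5.39, 5.87, 5.76, 4.31 and 4.91 on the sham arrays and 13.84, 13.80, 14.39, 15.29 and 14.76 on the CLP arrays. Both groups were tight beside the distance between them, and the rise was 9.17 ± 0.37 (log2, SE), or 576-fold (limma adjusted p = 1.32e-09, and 7.68 with normexp). Lcn2 encodes lipocalin 2, which withholds iron from bacteria by binding their siderophores. Its probe (chr3:11511592-11511651 in rn4, the build the files use) read 10.38, 10.39, 10.30, 9.95 and 9.96 on the sham arrays and 14.05, 15.91, 15.89, 15.45 and 15.16 on the CLP arrays. CLP 1 was the lowest of the CLP arrays and still stood far above every sham array, and Lcn2 rose by 5.10 ± 0.35 (log2, SE), or 34.3-fold (limma adjusted p = 6.72e-07). C3, the central component of complement, read 7.15, 7.90, 7.56, 6.69 and 7.17 on the sham arrays and 11.66, 12.43, 12.04, 11.97 and 12.54 on the CLP arrays. The groups were far apart and each was tight, and C3 rose by 4.83 ± 0.23 (log2, SE), or 28.4-fold (limma adjusted p = 3.52e-09). Tgm1 encodes a transglutaminase that cross-links proteins. It read 9.41, 6.75, 7.36, 8.12 and 6.06 on the sham arrays and 11.32, 11.75, 13.20, 13.24 and 12.63 on the CLP arrays. Sham arrays were spread widely, with sham 1 the highest of them, but none reached the lowest CLP array, and the rise was 4.89 ± 0.57 (log2, SE), or 29.7-fold (limma adjusted p = 5.28e-05). Gal, the precursor of the neuropeptide galanin, read 6.83, 7.60, 7.11, 8.05 and 6.13 on the sham arrays and 12.10, 12.17, 11.03, 11.21 and 12.77 on the CLP arrays. All CLP arrays were above all sham arrays, and Gal rose by 4.71 ± 0.46 (log2, SE), or 26.2-fold (limma adjusted p = 1.2e-05).

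Cdo1 encodes cysteine dioxygenase, which commits cysteine to taurine and sulfate. Its probe read 4.55, 4.42, 4.34, 3.47 and 3.04 on the sham arrays and 7.77, 8.18, 8.96, 8.79 and 8.39 on the CLP arrays, low in every sham heart and higher in every CLP heart (log2 fold change 4.46 ± 0.36 (SE), limma adjusted p = 2.77e-06, and 2.31 with normexp). Foxq1, a forkhead transcription factor, read 2.77, 4.82, 4.10, 4.19 and 4.23 on the sham arrays and 6.29, 7.12, 9.34, 10.76 and 8.48 on the CLP arrays. CLP hearts were spread widely, with CLP 1 the lowest, and all were above sham (log2 fold change 4.37 ± 0.71 (SE), limma adjusted p = 0.000696, and 2.44 with normexp). Further rises without overlap were those of Mmp24, a membrane-bound matrix metalloprotease (log2 fold change 4.04 ± 0.37 (SE), limma adjusted p = 7.25e-06, and 3.04 with normexp), and Clec4a2, a C-type lectin receptor of myeloid cells (log2 fold change 3.89 ± 0.29 (SE), limma adjusted p = 1.25e-06, and 2.30 with normexp).

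Among the falls, Ccl12, a chemokine that attracts monocytes, read 10.39, 10.97, 10.65, 11.14 and 9.83 on the sham arrays and 6.97, 7.70, 7.12, 6.74 and 6.23 on the CLP arrays. Every CLP array was below every sham array, and Ccl12 fell by 3.64 ± 0.32 (log2, SE), or 12.5-fold (limma adjusted p = 4.8e-06). Smim5, which encodes a small membrane protein, read 8.81, 9.23, 8.97, 9.44 and 9.01 on the sham arrays and 6.68, 6.67, 5.30, 4.37 and 4.11 on the CLP arrays. Sham arrays were tight and CLP arrays spread downward (log2 fold change -3.66 ± 0.47 (SE), limma adjusted p = 0.000102, and -2.38 with normexp). Perm1, a muscle regulator that acts with the PGC-1 coactivators and estrogen-related receptors, read 13.02, 13.62, 13.32, 13.63 and 13.54 on the sham arrays and 11.03, 11.15, 9.82, 9.52 and 9.86 on the CLP arrays. CLP 1 and CLP 2 kept more signal than the other CLP arrays, and no array overlapped (log2 fold change -3.15 ± 0.35 (SE), limma adjusted p = 4.07e-05). Btnl9, a butyrophilin-like membrane protein, read 10.56, 9.77, 10.44, 10.13 and 10.92 on the sham arrays and 7.14, 6.98, 7.17, 7.47 and 7.29 on the CLP arrays. Here both groups were tight (log2 fold change -3.15 ± 0.32 (SE), limma adjusted p = 1.58e-05). Slc4a1 encodes band 3, the anion exchanger of the red-cell membrane. It read 10.28, 10.86, 10.48, 10.82 and 10.61 on the sham arrays and 8.28, 7.84, 6.99, 6.85 and 6.84 on the CLP arrays, with no overlap and CLP 1 the highest of its group (log2 fold change -3.25 ± 0.35 (SE), limma adjusted p = 2.9e-05). Of the 4 erythroid markers tested, Slc4a1 among them, 0 were called higher and 1 lower. Their median was -0.07 (-0.50 without sham 1 and 0.39 without CLP 3). Islr, Krt24 and Col6a6 also fell, with log2 fold changes of -3.48 (-1.40 with normexp), -3.05 (-1.40 with normexp) and -3.15.

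**Figure D2:**
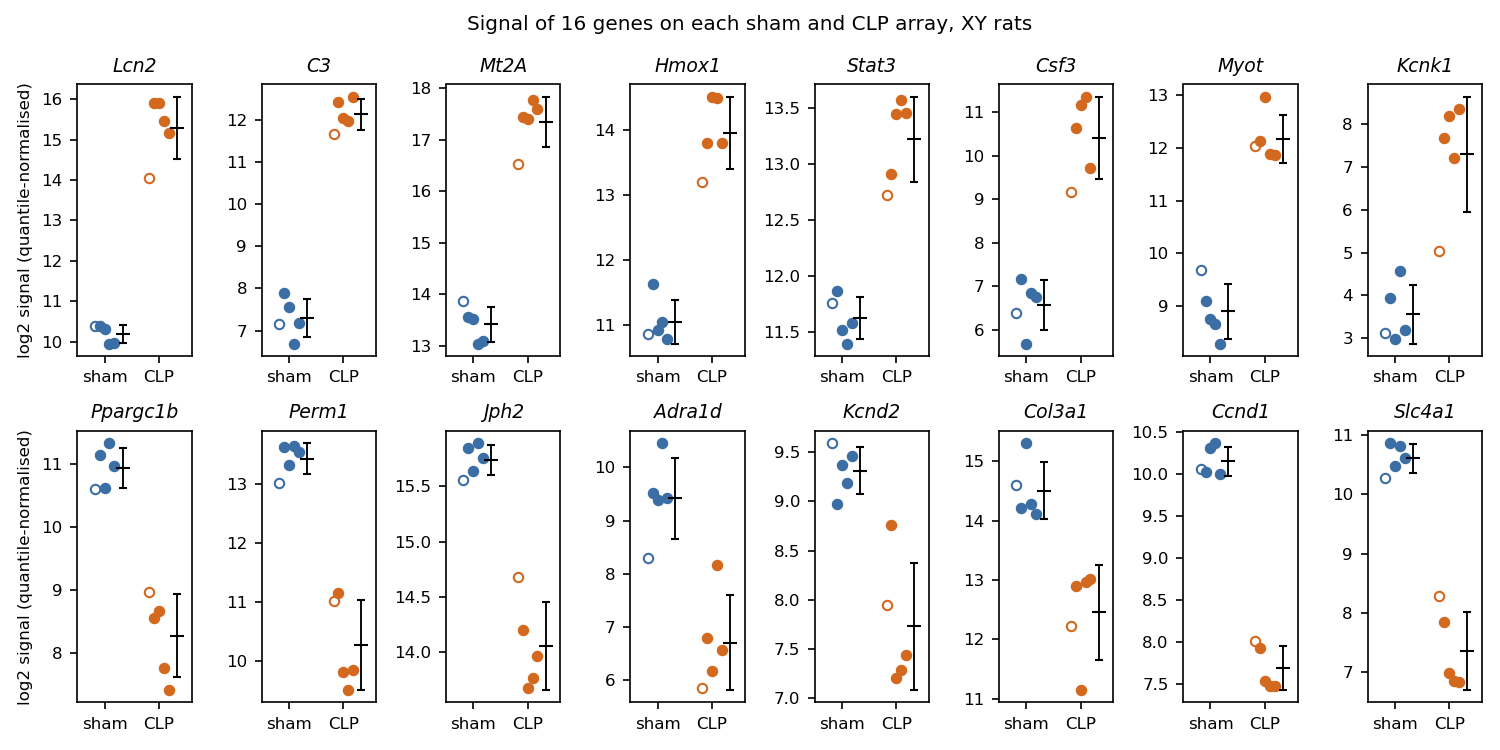
Log2 quantile-normalised signal of 16 genes on each of the 5 sham (blue) and 5 CLP (orange) arrays. Each panel has its own axis, an open symbol is replicate 1 of a group, and the bar beside each group is its mean ± SD. No sham array overlaps a CLP array in any of the panels, and CLP 1 lies nearest to sham for genes such as Lcn2, Mt2A and Kcnk1.

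Among lists with 20 or more tested members, acute-phase and secreted defence genes had the largest share called higher. Of 27 tested, 15 rose and 0 fell, with a median log2 fold change of 1.98, against 4.28% and -0.02 over all genes. The count ran from 12 to 17 with single arrays left out. Some members may have been tested only because they were bright in CLP. With probes kept where 80% of all 16 arrays had them well above background, 12 of 23 rose, with a median of 1.49. Of 22 counts of 1 or 2 members called higher or lower in the lists described here, 12 were lower without some single array. The erythroid and sodium channel lists were left out of those counts. Besides Lcn2 the risers included Hamp, which encodes the iron-regulating hormone hepcidin and read 9.38, 11.28, 10.46, 10.73 and 9.91 on the sham arrays and 12.48, 13.34, 14.82, 14.98 and 14.31 on the CLP arrays. CLP 1 was the lowest CLP array for Hamp as it was for Lcn2, and the groups did not overlap (log2 fold change 3.64 ± 0.53 (SE), limma adjusted p = 0.000304). Reg3b, a secreted antibacterial lectin, read 10.42, 9.79, 7.80, 6.14 and 10.01 on the sham arrays and 12.05, 15.06, 15.29, 15.07 and 14.76 on the CLP arrays. Its sham values were spread widely, all below CLP, and the rise was 5.61 ± 1.20 (log2, SE), or 48.9-fold (limma adjusted p = 0.00474), which no longer passed when sham 3, sham 4 or any 1 of CLP 2 to 5 was left out (limma adjusted p of 0.012 to 0.0142) or with no filter on dim probes (0.0108). Chosen after their values were seen, Orm1 (alpha-1-acid glycoprotein, 2.40), Slpi (a secreted protease inhibitor, 2.82), Lbp (which presents bacterial lipopolysaccharide, 1.87) and Fga (a fibrinogen chain, 2.34, and 0.49 with normexp) are further called members, given as log2 fold changes. Orm1 no longer passed when any 1 of sham 1, sham 3, CLP 2, CLP 3 or CLP 5 was left out (highest limma adjusted p of 0.0142). Fga no longer passed when any 1 of the sham arrays was left out (highest limma adjusted p of 0.0213) or in the authors' table (0.26, limma adjusted p = 0.0923).

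Hamp and Reg3b are known targets of the interleukin-6 and STAT3 route, and the 250 bases before their start sites are shown because each holds a STAT motif in this reference. The sequences were read from RefSeq's table of promoters (build GRCr8) and run 5′ to 3′ on the strand of the gene. Capitals mark TTCNNNGAA, searched on both strands.
Hamp, chr1:95300272-95300521, minus strand: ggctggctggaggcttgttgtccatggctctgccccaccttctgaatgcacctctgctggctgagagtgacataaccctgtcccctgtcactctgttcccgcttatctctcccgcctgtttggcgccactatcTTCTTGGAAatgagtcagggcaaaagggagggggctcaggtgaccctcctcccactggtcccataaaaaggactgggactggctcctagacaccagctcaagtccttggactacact
Reg3b, chr4:112419526-112419775, plus strand: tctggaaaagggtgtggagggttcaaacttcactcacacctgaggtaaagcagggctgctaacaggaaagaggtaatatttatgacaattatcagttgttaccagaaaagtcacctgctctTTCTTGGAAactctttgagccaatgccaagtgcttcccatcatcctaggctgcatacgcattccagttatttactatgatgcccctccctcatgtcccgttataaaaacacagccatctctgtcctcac
Both hold the same letters, TTCTTGGAA, beginning 117 bases before the start of Hamp and 129 before that of Reg3b. The motif stood in 8.68% of 27457 promoters of 300 bases in the table, in 6.80% of those of tested genes, in 7.73% of those of genes called higher and in 6.62% of those of genes called lower. The promoters of Lcn2, C3, Stat3 and Socs3 held neither this motif nor the NF-kappaB motifs GGGANTTCC and GGGANTTTC in the same window. A promoter was matched for 10836 of the 13733 tested genes.

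Along the interleukin-6 route Il6r, Jak2 and Stat3 rose, and the cytokine did not pass. Il6r, the ligand-binding receptor chain, rose by 1.56 ± 0.22 (log2, SE), or 2.94-fold (limma adjusted p = 0.000226). Jak2, the receptor-bound kinase, read 9.22, 9.32, 8.24, 8.24 and 8.80 on the sham arrays and 10.11, 10.77, 10.79, 11.11 and 11.20 on the CLP arrays, and rose by 2.03 ± 0.27 (log2, SE), or 4.08-fold (limma adjusted p = 0.000151). Stat3, the transcription factor that JAK kinases activate, read 11.76, 11.86, 11.52, 11.40 and 11.58 on the sham arrays and 12.72, 12.91, 13.44, 13.56 and 13.46 on the CLP arrays. CLP 1 and CLP 2 were the lowest CLP arrays, all were above sham, and the rise was 1.59 ± 0.17 (log2, SE), or 3.02-fold (limma adjusted p = 3.1e-05). Of 36 tested members of the interleukin-6, JAK, STAT and SOCS list, 4 rose and 1 fell. Il6 itself read 7.93, 9.79, 8.80, 9.22 and 8.94 on the sham arrays and 7.84, 9.61, 9.79, 10.03 and 10.26 on the CLP arrays, with overlapping groups (log2 fold change 0.57 ± 0.64 (SE), limma adjusted p = 0.624). Socs3, the feedback inhibitor of the route, also overlapped (log2 fold change 0.48 ± 0.41 (SE), limma adjusted p = 0.503).

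Among interleukin-1, tumour necrosis factor and other cytokines with their receptors, 9 of 42 tested members rose and 1 fell. Csf3 encodes granulocyte colony-stimulating factor, which releases neutrophils from bone marrow. It read 6.39, 7.18, 5.69, 6.85 and 6.76 on the sham arrays and 9.17, 10.63, 11.15, 11.35 and 9.72 on the CLP arrays, without overlap (log2 fold change 3.83 ± 0.55 (SE), limma adjusted p = 0.000277). Il10, an anti-inflammatory cytokine, read 1.96, 4.06, 2.02, 2.31 and 3.51 on the sham arrays and 4.23, 5.62, 6.77, 7.36 and 6.69 on the CLP arrays. Il10 was well above background on 1 sham array and 4 CLP arrays, and it rose by 3.36 ± 0.66 (log2, SE), or 10.3-fold (limma adjusted p = 0.00269, and 1.02 with normexp). That call was lost with normexp (limma adjusted p = 0.0151) and in the authors' table (log2 fold change 1.37, limma adjusted p = 0.0653). Il1r2, a decoy receptor that binds interleukin-1 without signalling, rose by 2.01 ± 0.28 (log2, SE), or 4.02-fold (limma adjusted p = 0.000234, and 1.31 with normexp), and Csf2rb, the shared chain of several cytokine receptors, by 2.31 ± 0.28 (log2, SE), or 4.96-fold (limma adjusted p = 7.65e-05, and 0.72 with normexp). Il1b and Tnf, the classical early cytokines, were well above background on all 10 arrays and did not pass, with log2 fold changes of -0.09 ± 0.30 and -0.45 ± 0.40 (limma adjusted p = 0.89 and 0.519).

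Toll-like receptor and NF-kappaB genes gave 3 rises and 0 falls among 41 tested. Tlr1, which pairs with Tlr2 to sense bacterial lipopeptides, rose by 2.48 ± 0.31 (log2, SE), or 5.56-fold (limma adjusted p = 8.32e-05, and 0.82 with normexp), a call that was lost in the authors' table (1.06, limma adjusted p = 0.0331), and Irak3, an inhibitor of the pathway, by 1.27 ± 0.25 (log2, SE), or 2.42-fold (limma adjusted p = 0.00259). Tlr2 and Tlr4 differed by -0.10 ± 0.19 and 0.03 ± 0.22, and Nfkbia, which holds NF-kappaB in the cytoplasm, by 0.12 ± 0.31. None of these passed. Of 30 complement genes 6 rose and 0 fell. Next to C3 these included Cfb, factor B of the alternative pathway (log2 fold change 2.22 ± 0.36 (SE), limma adjusted p = 0.000686), and Itgam, a chain of complement receptor 3 (log2 fold change 1.27 ± 0.17 (SE), limma adjusted p = 0.000129). The endothelial adhesion genes Icam1 and Vcam1 overlapped between the groups, with log2 fold changes of -0.27 ± 0.49 and -0.45 ± 0.52.

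Chemokine and interferon-stimulated genes were called lower more often than higher, and there single arrays mattered. Of 40 chemokine and chemokine receptor genes 1 rose and 7 fell, and the number that fell was 4 without sham 1, 3 without sham 2, 4 without sham 5 and 3 without CLP 4. Of 48 interferon-stimulated genes 1 rose and 6 fell, with a median log2 fold change of -0.76. The number that fell was 3 without sham 1 and 1 without sham 2, CLP 2, CLP 3 or CLP 4. The median was -1.36 on the first slide and -0.22 on the second. Mean log2 differences of the list from its sham mean were 0.93, 0.41, -0.39, -0.51 and -0.44 on the sham arrays and -0.66, -0.73, -1.21, -0.81 and -0.63 on the CLP arrays. Sham 1 and sham 2, both on the first slide, stood above the other sham arrays, and the part of this in the result was not tested.

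**Figure D3:**
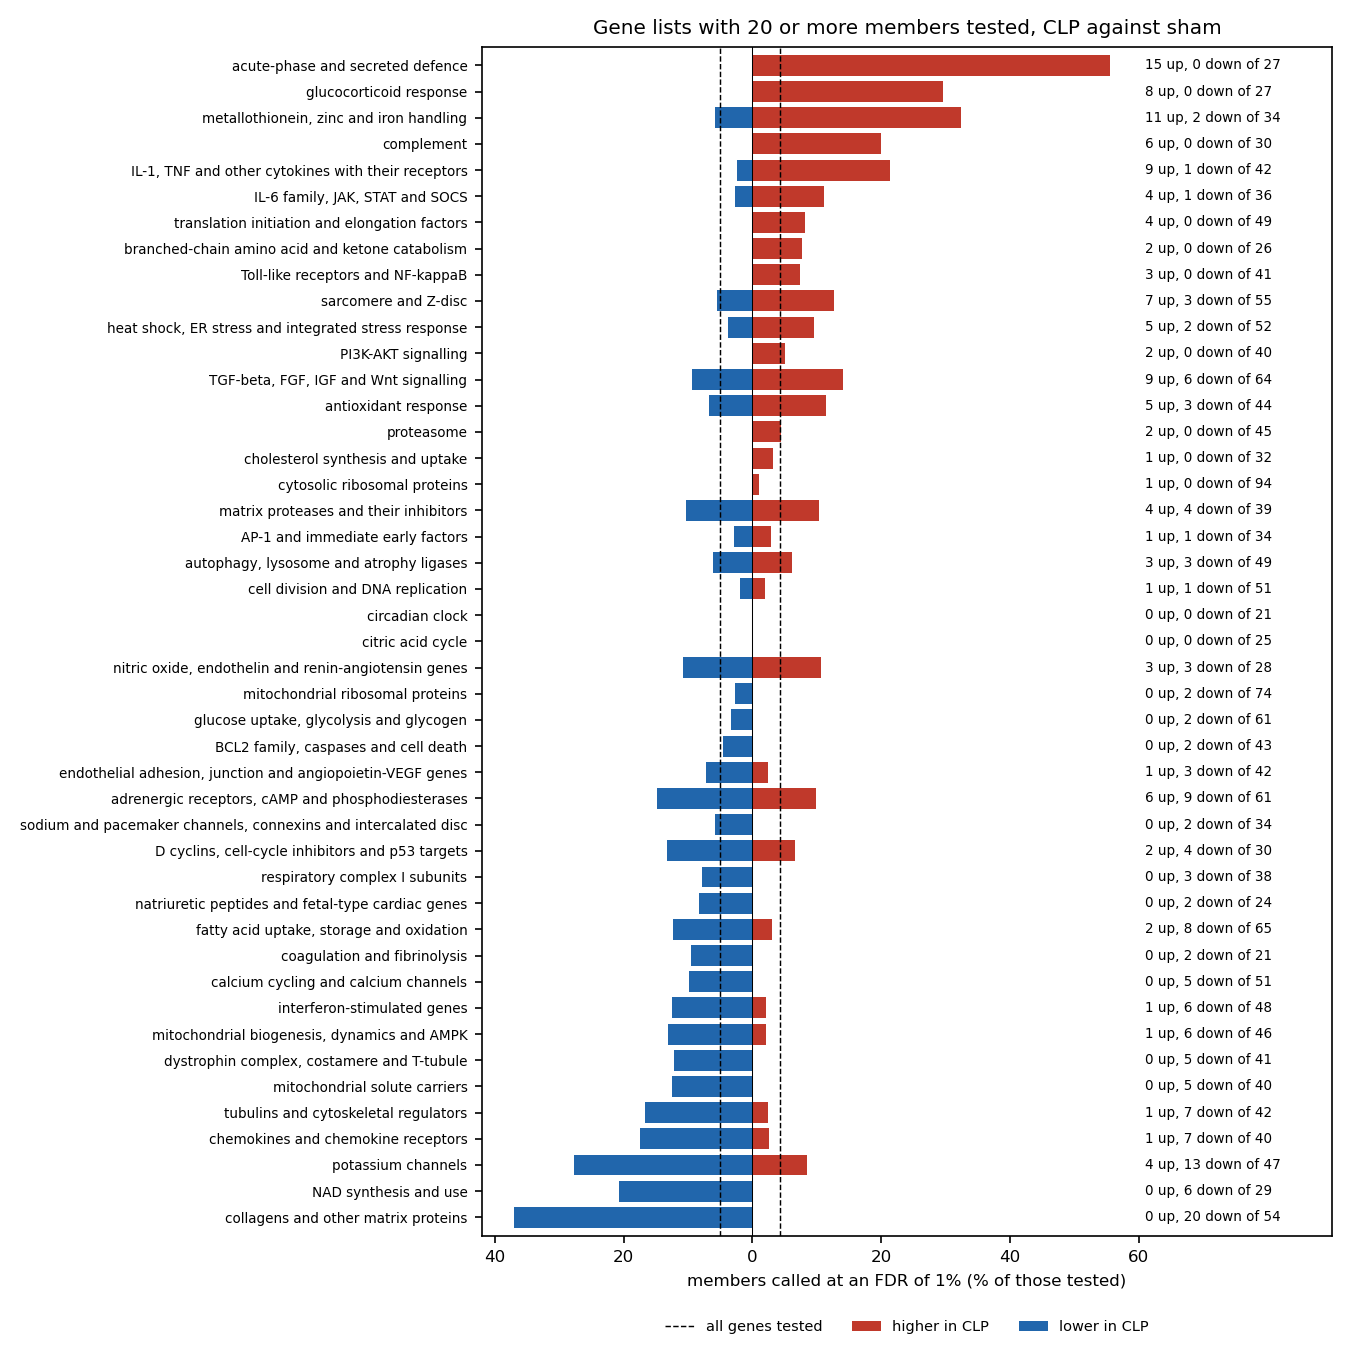
For each list with 20 or more tested members, red bars give the percentage called higher in CLP and blue bars the percentage called lower, with counts at the right. Dashed lines mark the shares over all genes tested, 4.28% higher and 5.07% lower. Acute-phase genes have the longest red bar (15 of 27) and collagens and other matrix proteins the longest blue bar (20 of 54).

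Of 34 tested members of the metallothionein, zinc and iron list 11 rose and 2 fell, and the count of rises was 11 to 12 with single arrays left out. Metallothioneins are small cysteine-rich proteins that bind zinc and copper. Mt2A read 13.86, 13.55, 13.52, 13.04 and 13.10 on the sham arrays and 16.52, 17.44, 17.40, 17.78 and 17.60 on the CLP arrays. CLP 1 was again the lowest of its group and the groups were well apart (log2 fold change 3.93 ± 0.28 (SE), limma adjusted p = 9.83e-07). Mt1 read 15.32, 14.48, 15.02, 15.17 and 14.02 on the sham arrays and 17.23, 17.38, 17.84, 17.97 and 17.68 on the CLP arrays, also without overlap (log2 fold change 2.82 ± 0.29 (SE), limma adjusted p = 1.95e-05). Hmox1, heme oxygenase 1, which breaks down heme and frees iron, read 10.86, 11.62, 10.93, 11.05 and 10.79 on the sham arrays and 13.19, 13.80, 14.51, 14.49 and 13.80 on the CLP arrays. Every CLP array exceeded every sham array, and the rise was 2.91 ± 0.28 (log2, SE), or 7.51-fold (limma adjusted p = 1.09e-05). Chosen after their values were seen, the zinc importer Slc39a14 rose by 2.01 (log2) and Slc11a1, which pumps iron out of the phagosome, by 2.71 (1.56 with normexp), while the 2 members that fell were Tfrc, the transferrin receptor (-1.56), and Alas1, the first enzyme of heme synthesis (-1.60). The call of Alas1 was lost in 7 of the 10 fits with 1 array left out (highest limma adjusted p of 0.0178).

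The 250 bases before the start of both metallothionein genes are shown because metallothionein promoters are the textbook case of metal response elements. Capitals mark TGCNCNC, where each N is A or G, searched on both strands, so a match on the other strand appears as its reverse complement. The sequences are again RefSeq's (GRCr8).
Mt2A, chr19:10838709-10838958, minus strand: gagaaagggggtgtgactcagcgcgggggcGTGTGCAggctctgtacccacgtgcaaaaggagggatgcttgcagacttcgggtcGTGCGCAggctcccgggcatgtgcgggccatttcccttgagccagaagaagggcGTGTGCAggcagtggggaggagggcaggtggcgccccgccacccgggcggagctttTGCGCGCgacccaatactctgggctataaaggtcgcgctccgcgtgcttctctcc
Mt1, chr19:10832976-10833225, minus strand: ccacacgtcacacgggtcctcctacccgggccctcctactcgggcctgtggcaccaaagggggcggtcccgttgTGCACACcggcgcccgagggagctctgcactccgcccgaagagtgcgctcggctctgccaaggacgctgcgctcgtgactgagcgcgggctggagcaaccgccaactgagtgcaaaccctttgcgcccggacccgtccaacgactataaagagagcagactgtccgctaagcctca
Mt2A held 4 matches, beginning 220, 165, 111 and 55 bases before the start, and Mt1 held 1, at 176 bases. Sequences with C or T at the last N were not searched, and the printed Mt1 sequence holds some. The matches are therefore not a count of all metal response elements. Of all 27457 promoters 14.6% held at least 1 match and 52 (0.189%) held 4 or more. The share with a match was 21.7% among tested genes, 21.0% among genes called higher and 21.0% among genes called lower.

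Of 27 tested glucocorticoid-response genes, a list that shares the metallothioneins and Lcn2 with those above, 8 rose and 0 fell (median 0.62). Fkbp5, a co-chaperone of the glucocorticoid receptor, rose by 1.22 ± 0.17 (log2, SE), or 2.33-fold (limma adjusted p = 0.000201), and Ddit4, an inhibitor of mTOR signalling, by 1.65 ± 0.29 (log2, SE), or 3.14-fold (limma adjusted p = 0.00139). In the antioxidant list 5 of 44 rose and 3 fell, and the count of rises was 3 without sham 4, sham 5, CLP 3 or CLP 5. Ncf4, a subunit of the phagocyte NADPH oxidase, rose (log2 fold change 1.61 ± 0.14 (SE), limma adjusted p = 3.89e-06), while Ncf1, another subunit, fell (log2 fold change -1.42 ± 0.28 (SE), limma adjusted p = 0.00254). Sod2, the mitochondrial superoxide dismutase, did not pass (log2 fold change 0.31 ± 0.14 (SE), limma adjusted p = 0.15). In the heat shock and integrated stress list 5 of 52 rose and 2 fell, and the count of rises was 3 without sham 1, sham 5, CLP 3 or CLP 4. Asns, asparagine synthetase, a target of the integrated stress response, rose by 1.37 ± 0.23 (log2, SE), or 2.59-fold (limma adjusted p = 0.000857), while Ddit3 (CHOP), another target, fell (log2 fold change -1.31 ± 0.25 (SE), limma adjusted p = 0.00216, or 0.0109 in a fit of the 10 arrays alone). Of 21 circadian clock genes limma called 0 (8 at an unadjusted p under 0.05, and 0 by SAM).

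Of 55 sarcomere and Z-disc genes 7 rose and 3 fell. The count of rises was 2 to 4 without sham 1, sham 3, sham 5, CLP 3, CLP 4 or CLP 5, and that of falls was 6 without CLP 1. Myot, myotilin, a Z-disc protein that binds alpha-actinin and filamin, read 9.68, 9.09, 8.76, 8.65 and 8.28 on the sham arrays and 12.03, 12.14, 12.97, 11.88 and 11.86 on the CLP arrays. The groups were widely separated and all 3 probes of the gene rose (log2 fold change 3.28 ± 0.29 (SE), limma adjusted p = 4.8e-06). Ankrd2, a stretch-responsive ankyrin repeat protein, rose by 3.88 ± 0.85 (log2, SE), or 14.7-fold (limma adjusted p = 0.00571), but it no longer passed when any 1 of sham 1 to 4 or CLP 2 to 4 was left out (limma adjusted p of 0.0124 to 0.0188). Myh7b, a slow-type myosin heavy chain, fell (log2 fold change -1.67 ± 0.32 (SE), limma adjusted p = 0.00222). The main myosins Myh6 and Myh7 and the troponin Tnnt2 differed by 0.04 ± 0.08, 0.08 ± 0.08 and 0.05 ± 0.09 (log2), and none of these was called.

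In calcium cycling 0 of 51 genes rose and 5 fell, 3 without sham 2, sham 4, CLP 2, CLP 4 or CLP 5. Jph2, junctophilin 2, holds the T-tubule against the sarcoplasmic reticulum. It read 15.56, 15.84, 15.64, 15.89 and 15.75 on the sham arrays and 14.68, 14.20, 13.68, 13.77 and 13.96 on the CLP arrays. All sham values lay above all CLP values, CLP 1 was the highest CLP array, and both probes of the gene fell (log2 fold change -1.68 ± 0.19 (SE), limma adjusted p = 5.24e-05). Atp2a3, a SERCA calcium pump found mainly outside muscle cells, fell by 1.05 ± 0.17 (log2, SE), or 2.07-fold (limma adjusted p = 0.000596). The cardiac pump Atp2a2, its inhibitor Pln, the release channel Ryr2 and the L-type channel Cacna1c differed by -0.14 ± 0.12, 0.13 ± 0.44, -0.14 ± 0.29 and 0.04 ± 0.14 (log2), and none was called.

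Of 47 potassium channel genes tested 4 rose and 13 fell, against 4.28% and 5.07% of all genes, with a median of -0.48. The number that fell was 8 without sham 1 or sham 4, 6 without sham 2, sham 5 or CLP 4, 5 without CLP 3 and 7 without CLP 5. Kcnd2, a pore subunit of the transient outward current that starts repolarisation, read 9.59, 8.97, 9.36, 9.18 and 9.46 on the sham arrays and 7.95, 8.76, 7.21, 7.29 and 7.44 on the CLP arrays. CLP 2 came close to the lowest sham array without crossing it, and Kcnd2 fell (log2 fold change -1.58 ± 0.31 (SE), limma adjusted p = 0.00269). Its partners Kcnd3 and Kcnip2 fell by 0.96 ± 0.23 (log2, SE), or 1.95-fold (limma adjusted p = 0.00917) and 0.83 ± 0.19 (log2, SE), or 1.77-fold (limma adjusted p = 0.00755), and each of those calls was lost in 9 of the 10 fits with 1 array left out (highest limma adjusted p of 0.0268 and 0.024). Kcnk1, a background (leak) channel, rose instead. It read 3.11, 3.94, 2.98, 4.58 and 3.19 on the sham arrays and 5.03, 7.67, 8.18, 7.21 and 8.36 on the CLP arrays, with CLP 1 nearest to sham (log2 fold change 3.73 ± 0.54 (SE), limma adjusted p = 0.000258, and 1.67 with normexp). Kcnmb4, an auxiliary subunit of calcium-activated potassium channels, rose by 1.82 ± 0.23 (log2, SE), or 3.53-fold (limma adjusted p = 0.000102). The inward rectifier Kcnj2 did not pass (log2 fold change -0.18 ± 0.34 (SE), limma adjusted p = 0.796). Of 34 sodium and pacemaker channel, connexin and intercalated disc genes 0 rose and 2 fell (5.88%, beside 5.07% of all genes). Among them Scn2b, an auxiliary sodium channel subunit, fell (log2 fold change -1.99 ± 0.27 (SE), limma adjusted p = 0.000163, and -1.17 with normexp).

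Adrenergic and cAMP genes moved both ways, with 6 of 61 rising and 9 falling. The alpha-1 receptor genes Adra1d and Adra1b fell. Adra1d read 8.29, 9.52, 9.40, 10.45 and 9.43 on the sham arrays and 5.85, 6.79, 6.16, 8.17 and 6.57 on the CLP arrays. Rats differed within each group, with sham 1 the lowest sham and CLP 4 the highest CLP array, and those arrays came close without crossing (log2 fold change -2.71 ± 0.41 (SE), limma adjusted p = 0.000366). Adra1b fell by 1.72 ± 0.25 (log2, SE), or 3.30-fold (limma adjusted p = 0.000312). The beta-1 receptor Adrb1 differed by -0.29 ± 0.18 and was not called (limma adjusted p = 0.328). Of the kinases that uncouple these receptors, Grk3 rose by 1.85 ± 0.32 (log2, SE), or 3.61-fold (limma adjusted p = 0.00102) and Grk5 by 0.90 ± 0.15 (log2, SE), or 1.87-fold (limma adjusted p = 0.00108). Downstream, Crem, a cAMP-responsive transcription factor, rose (log2 fold change 1.31 ± 0.18 (SE), limma adjusted p = 0.000216), while Akap6, which anchors protein kinase A, fell (log2 fold change -1.12 ± 0.13 (SE), limma adjusted p = 5e-05), as did the phosphodiesterase Pde1a (log2 fold change -1.46 ± 0.27 (SE), limma adjusted p = 0.00188, and -0.48 with normexp).

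In the list of nitric oxide, endothelin and renin-angiotensin genes 3 of 28 rose and 3 fell, 1 without any 1 of the sham arrays or of CLP 3 to 5. Ace, the angiotensin-converting enzyme, read 10.17, 9.19, 9.12, 8.88 and 9.94 on the sham arrays and 11.32, 11.19, 11.61, 11.81 and 10.70 on the CLP arrays, and both of its probes rose (log2 fold change 1.87 ± 0.26 (SE), limma adjusted p = 0.00019). The receptor-activity-modifying proteins that set the ligand of the calcitonin receptor-like receptor went in opposite directions. Ramp3, which gives it preference for adrenomedullin, rose by 2.06 ± 0.37 (log2, SE), or 4.16-fold (limma adjusted p = 0.00148, and 1.21 with normexp), and Ramp1, which makes it a receptor for calcitonin gene-related peptide, fell by 1.91 ± 0.30 (log2, SE), or 3.77-fold (limma adjusted p = 0.000517). The natriuretic peptides Nppa and Nppb did not pass (-0.80 ± 0.79 and 0.15 ± 0.45, log2).

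Several regulators of oxidative metabolism fell. Ppargc1b, the coactivator PGC-1beta, read 10.60, 11.14, 10.62, 11.32 and 10.96 on the sham arrays and 8.97, 8.55, 8.66, 7.77 and 7.42 on the CLP arrays. CLP 4 and CLP 5 were the lowest, no arrays overlapped, and it fell by 2.65 ± 0.28 (log2, SE), or 6.29-fold (limma adjusted p = 2.87e-05). Ppara, the nuclear receptor that drives fatty acid oxidation genes, fell by 1.27 ± 0.20 (log2, SE), or 2.42-fold (limma adjusted p = 0.000645). Ucp3, a mitochondrial carrier that responds to fatty acids, read 9.94, 10.34, 9.72, 10.80 and 10.35 on the sham arrays and 7.95, 8.43, 7.28, 5.83 and 7.82 on the CLP arrays, and fell by 2.77 ± 0.39 (log2, SE), or 6.81-fold (limma adjusted p = 0.000245). In the whole fatty acid list 2 of 65 rose and 8 fell, 4 without sham 3, sham 4, sham 5, CLP 3 or CLP 4 and 5 without sham 2 or CLP 5 or with slide as a term. Fabp5, a fatty acid binding protein that is not the heart's main form, rose (log2 fold change 1.69 ± 0.20 (SE), limma adjusted p = 5.07e-05). Cpt1b and Cd36, which carry fatty acids into mitochondria and into the cell, differed by -0.05 ± 0.12 and 0.21 ± 0.10 and were not called.

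Genes of mitochondrial biogenesis and dynamics gave 1 rise and 6 falls among 46. Mtfp1, which promotes mitochondrial fission, fell by 2.01 ± 0.31 (log2, SE), or 4.02-fold (limma adjusted p = 0.000427). NAD genes gave 0 rises and 6 falls among 29, the largest that of Nmrk2, nicotinamide riboside kinase 2 (log2 fold change -4.50 ± 0.38 (SE), limma adjusted p = 3.47e-06, and -3.32 with normexp). Glucose genes gave 0 rises and 2 falls among 61, and 5 falls without sham 1. Of 25 citric acid cycle genes limma called 0 (6 at an unadjusted p under 0.05, and 0 by SAM). Of 26 branched-chain amino acid and ketone genes 2 rose, Bcat1 (log2 fold change 1.24 ± 0.20 (SE), limma adjusted p = 0.000659), the cytosolic branched-chain aminotransferase, and Bdh1 (log2 fold change 1.09 ± 0.18 (SE), limma adjusted p = 0.000834), which interconverts the ketone bodies. Abca1, the cholesterol exporter, was the single call among 32 cholesterol genes and rose by 1.45 ± 0.21 (log2, SE), or 2.73-fold (limma adjusted p = 0.000272, and 0.95 with normexp).

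Over all genes tested, 47.6% had a log2 fold change above 0. All 38 complex I subunits tested had a log2 fold change below 0 (35 without sham 4), with a median of -0.28 (-0.30 to -0.24 with single arrays left out), but 3 were called, and 1 by SAM. These were Ndufa4l2, a paralogue of Ndufa4 that was listed here by its name (log2 fold change -1.56 ± 0.25 (SE), limma adjusted p = 0.000661, and -1.04 with normexp), Ndufb10 (log2 fold change -0.49 ± 0.09 (SE), limma adjusted p = 0.00228, or 0.0143 in a fit of the 10 arrays alone) and Ndufb7, named after its value was seen (-0.39, log2). SAM did not call Ndufb10 or Ndufb7, and Ndufb7 was also lost without sham 3, sham 4, CLP 4 or CLP 5 (highest limma adjusted p of 0.0149). Mean log2 differences of the list from its sham mean were -0.27, 0.05, 0.06, 0.17 and -0.01 on the sham arrays and -0.39, -0.14, -0.24, -0.37 and -0.32 on the CLP arrays. Sham 1 was below CLP 2 and CLP 3, so the groups overlapped. Medians were -0.28, -0.20, -0.16 and -0.21 for complexes II, III and IV and ATP synthase (4, 9, 14 and 16 genes). For complex III the median was -0.09 without sham 4 and -0.11 without CLP 1. For ATP synthase it was -0.33 without sham 1 and -0.14 without sham 4. Limma and SAM called 0 of these, and 3, 3, 2 and 4 had an unadjusted p under 0.05. On the first slide the medians of complexes I, II, III and IV and ATP synthase were -0.14, -0.12, -0.03, -0.09 and -0.07. They were further below 0 on the second slide, at -0.39, -0.45, -0.29, -0.18 and -0.30. Mitochondrial ribosomal proteins had a median of -0.19 (-0.06 on the first slide and -0.34 on the second), with 8 of 74 above 0 (13 without sham 2, 19 without sham 4 and 18 without CLP 1) and 2 called (4 without CLP 1), Mrpl12 (log2 fold change -0.77 ± 0.11 (SE), limma adjusted p = 0.000177) and Mrpl34 (log2 fold change -0.63 ± 0.12 (SE), limma adjusted p = 0.00199). Cytosolic ribosomal proteins had a median of 0.19, with 90 of 94 above 0 and 1 called. Translation factors had a median of 0.21 (0.13 without sham 1), with 43 of 49 above 0 (39 without sham 1) and 4 called higher, 2 without sham 3, sham 4, CLP 2, CLP 4 or CLP 5. Eif4ebp1, a repressor of cap-dependent translation that mTOR controls, rose by 1.94 ± 0.29 (log2, SE), or 3.83-fold (limma adjusted p = 0.000369), and Eif1a by 1.41 ± 0.22 (log2, SE), or 2.67-fold (limma adjusted p = 0.000527).

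**Figure D4:**
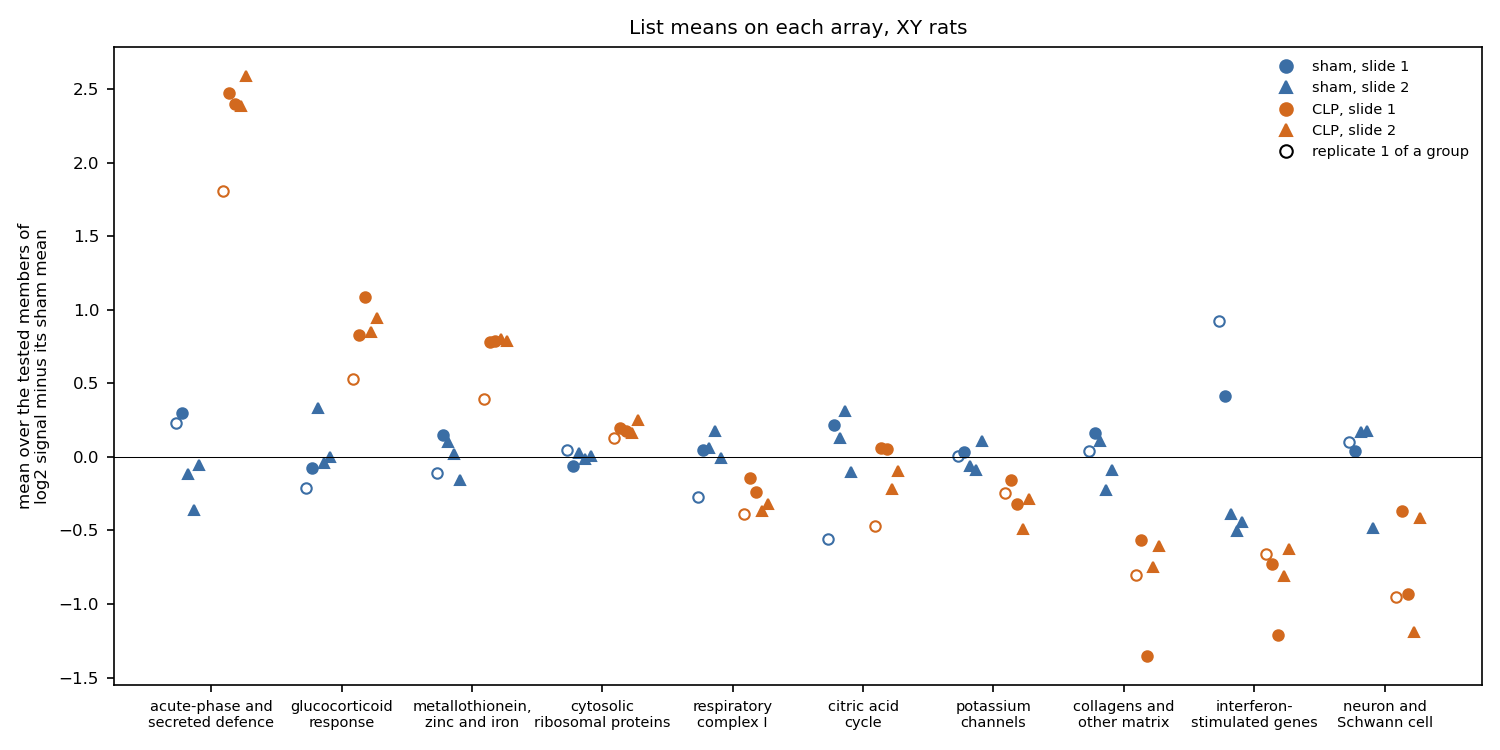
For 10 lists, each symbol is 1 array and the vertical axis is the mean over the list's tested members of the log2 signal minus the member's sham mean. Blue is sham, orange is CLP, circles are the first slide, triangles the second, and open symbols replicate 1 of a group. Acute-phase, glucocorticoid, metal and matrix lists separate the groups on every array, while sham 1 falls among CLP arrays for complex I and below all of them for the citric acid cycle, and sham 1 and sham 2 stand high for interferon-stimulated genes.

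Of 54 collagens and other matrix proteins 0 rose and 20 fell (16 to 20 with single arrays left out), against 5.07% of all genes. Of the same 54, 28 had every CLP array below every sham array, while 14.3% of all genes did not overlap in either direction. The median was -0.80. Col3a1, a fibrillar collagen, read 14.60, 14.21, 15.30, 14.29 and 14.12 on the sham arrays and 12.23, 12.90, 11.15, 12.97 and 13.03 on the CLP arrays. CLP 3 was the lowest array and sham 3 the highest, with no overlap, and Col3a1 fell by 2.05 ± 0.36 (log2, SE), or 4.14-fold (limma adjusted p = 0.00129). Col1a1, the main fibrillar collagen, also had CLP 3 as its lowest array, at 9.57 against 11.31 to 11.89 on the other CLP arrays, and both of its probes fell (log2 fold change -2.11 ± 0.38 (SE), limma adjusted p = 0.00154). Fbn2, a microfibril protein, fell by 2.26 ± 0.43 (log2, SE), or 4.79-fold (limma adjusted p = 0.00236, and -0.95 with normexp). Enzymes that cross-link collagen and elastin fell with them, namely Loxl1 (log2 fold change -2.30 ± 0.34 (SE), limma adjusted p = 0.000366) and Loxl2 (log2 fold change -1.38 ± 0.24 (SE), limma adjusted p = 0.00117). Adamts9, a protease of the proteoglycans, rose by 1.59 ± 0.21 (log2, SE), or 3.01-fold (limma adjusted p = 0.000142).

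Growth factor genes were mixed, with 9 of 64 TGF-beta, FGF, IGF and Wnt genes rising (5 without CLP 4) and 6 falling (3 without sham 3, sham 5 or CLP 3 and 2 without CLP 5). Fgf2, basic fibroblast growth factor, read 7.51, 7.08, 7.06, 6.97 and 6.99 on the sham arrays and 8.89, 9.23, 9.63, 9.75 and 9.78 on the CLP arrays. No CLP array came near the sham range, and both probes rose (log2 fold change 2.34 ± 0.20 (SE), limma adjusted p = 4.02e-06). Inhbb, the beta B subunit of activin and inhibin, rose by 2.14 ± 0.26 (log2, SE), or 4.40-fold (limma adjusted p = 8.27e-05). Ccnd1, cyclin D1, which takes cells from G1 into S phase, read 10.06, 10.02, 10.32, 10.37 and 10.01 on the sham arrays and 8.01, 7.92, 7.54, 7.48 and 7.48 on the CLP arrays. Both groups were tight and far apart, and Ccnd1 fell by 2.47 ± 0.24 (log2, SE), or 5.53-fold (limma adjusted p = 1.37e-05) on the described probe, with both probes called. Of 51 cell division genes 1 rose and 1 fell. Bok, a member of the BCL2 family that promotes death, fell by 1.22 ± 0.24 (log2, SE), or 2.33-fold (limma adjusted p = 0.00267), as 1 of 2 falls among 43 cell death genes.

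Among tubulins and cytoskeletal regulators 1 of 42 rose and 7 fell, 3 to 4 without any 1 of sham 2 to 5 or CLP 3 to 5. Tuba4a, an alpha-tubulin, read 16.16, 15.89, 16.11, 15.91 and 15.94 on the sham arrays and 14.03, 14.44, 14.02, 13.61 and 14.47 on the CLP arrays. Sham values were tight and every CLP value lay well below the lowest of them (log2 fold change -1.89 ± 0.15 (SE), limma adjusted p = 2.77e-06). Tuba8, another alpha-tubulin, fell by 1.90 ± 0.16 (log2, SE), or 3.74-fold (limma adjusted p = 3.8e-06). Of 49 autophagy, lysosome and atrophy ligase genes 3 rose and 3 fell (1 without sham 2). Ctsl, the lysosomal protease cathepsin L, rose by 1.30 ± 0.18 (log2, SE), or 2.46-fold (limma adjusted p = 0.000211).

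Markers of other heart cells moved with some of these groups. Fibroblast markers, of which 6 are also in the matrix list, gave 1 rise and 5 falls among 10 (3 falls without sham 3), with a median of -1.20. All 5 that fell are matrix genes. Of the others, named after their values were seen, the fibroblast transcription factor Tcf21 rose (1.25, log2, a call lost in 6 of the 10 fits with 1 array left out, with a highest limma adjusted p of 0.0144), and Pdgfra (-0.40), Dpt (-0.36) and Pi16 (-1.05) were not called. List means were -0.21 to 0.19 on sham arrays and -1.47 to -0.42 on CLP arrays. Their part in the fall of the matrix genes was not tested. Macrophage and monocyte markers gave 4 rises and 0 falls among 13, and their list means were -0.26 to 0.25 in sham and 0.29 to 1.16 in CLP. The risers, named after their values were seen, were Adgre1 (2.79), Msr1 (2.05, and 1.13 with normexp), Lyz2 (1.44) and Cd68 (0.86). Of 16 neutrophil markers on the array 4 were tested. S100a8 and S100a9 rose and Ncf1 fell, the call of S100a9 was lost with normexp (limma adjusted p = 0.031) and in the authors' table (0.0161), and 7 markers, among them Mmp8, Cxcr1, Elane and Ltf, were well above background on no array. Of 11 T and NK cell markers limma called 0 (4 at an unadjusted p under 0.05, and 5 by SAM), and all 11 lay below 0 with a median of -0.75. That median was -0.40 without sham 2, -0.44 without sham 3 and -0.35 without sham 4, and 2 of the markers were above 0 without sham 1. Cd3e, Cd5 and Klrb1 were well above background on no array.

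Neuron and Schwann cell markers gave 0 rises and 4 falls among 10, with list means of -0.48 to 0.18 in sham and -1.19 to -0.37 in CLP, so that sham 5 lay among the CLP arrays. The list did not move as 1, since 4 of the 10 had a log2 fold change above 0. For 1 of these every CLP array lay above every sham array, though it was not called. Those that fell included, named after their values were seen, Prph (-1.58), Gap43 (-1.48, and -0.68 with normexp) and S100b (-1.27, and -0.55 with normexp). The call of S100b was lost with normexp (limma adjusted p = 0.0101) and in 6 of the 10 fits with 1 array left out (highest limma adjusted p of 0.0222). Antigen-presenting genes of MHC class II and dendritic cells gave 1 rise and 5 falls among 10 (median -0.59). Of 10 smooth muscle and pericyte markers limma called 0 (5 at an unadjusted p under 0.05, and 2 by SAM) with a median of -0.59, and of 11 endothelial markers it called 1.

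For some genes a group lay wholly below detection, so only a bound on the fold is given. It is the bright group's mean against the dim group's, with each dim array raised to its lowest signal among probes well above background. That bound, which holds only for the main background correction, was 35.4-fold higher in CLP for Wfdc21, a WAP-domain protein. It was 25.8-fold for Scgb2a2, a secretoglobin, 11.3-fold for S100a8, a subunit of calprotectin, and 5.06-fold for Defb4, a beta-defensin. With normexp the log2 fold changes of these genes were smaller than that bound, at 2.58, 2.02, 1.24 and 0.72. In the authors' table they were also smaller than it, at 3.33, 2.98, 1.74 and 0.63. Of genes called higher, 13 were well above background on no sham array, and 7 of these on all 5 CLP arrays. In the other direction the bound was 6.33-fold lower in CLP for Klk14, a kallikrein-type protease. It was 5.56-fold for Muc19, a gel-forming mucin, and 4.12-fold for Papln, a matrix protein. With normexp the log2 fold changes of these genes were smaller in size than that bound, at -0.87, -0.86 and -0.70. In the authors' table they were also smaller in size, at -1.36, -1.27 and -0.93. Of genes called lower, 15 were well above background on no CLP array, and 12 of these on all 5 sham arrays.

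In XX rats the same contrast rests on its own 5 sham and 5 CLP arrays, so its values can be set beside these. Of the 1284 genes called in XY rats 1258 had a value in XX rats, and 1252 of these (99.5%) differed in the same direction, against 78.8% of all 13334 genes with a value in both. The median size of the log2 fold change of the called genes was 1.05 in XY and 0.80 in XX, and it was smaller in XX for 968 of them. The genes were chosen for passing in XY rats, so this is no test of a difference in size. Lcn2 differed by 5.10 ± 0.35 in XY and 3.82 ± 0.41 in XX, Mt2A by 3.93 ± 0.28 and 2.82 ± 0.54, Ppargc1b by -2.65 ± 0.28 and -1.70 ± 0.33 and Col3a1 by -2.05 ± 0.36 and -1.20 ± 0.36. Reg3b (5.61 ± 1.20 and 7.14 ± 1.09), Gal (4.71 ± 0.46 and 5.88 ± 0.92) and Adra1d (-2.71 ± 0.41 and -3.05 ± 0.31) were at least as large in XX.

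The difference between the sexes was tested by an interaction term over all 32 arrays. At an adjusted p of 0.05, limma called 0 of 24768 probes, and 867 probes had an unadjusted p under 0.05. Among the described probes of 13334 genes, limma's smallest adjusted p was 0.752. Of those genes, the smallest unadjusted p were those of Traf6, an adaptor of Toll-like receptor signalling, with log2 fold changes of 0.28 ± 0.17 (SE) in XY and -0.84 ± 0.17 in XX, and Cxcl9, a chemokine induced by interferon-gamma, with -2.72 ± 0.59 and -6.27 ± 0.54. In XY rats the value of Cxcl9 was -4.87 on the first slide and -0.99 on the second, and its call in XY rats was lost without sham 2 or any 1 of CLP 1 to 4 (highest limma adjusted p of 0.0165). Adamts9 differed by 1.59 ± 0.21 in XY and 0.48 ± 0.19 in XX (unadjusted p of limma's interaction term = 0.00065). None passed after adjustment, and since each slide holds 1 sex, sex and slide cannot be told apart.

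**Figure D5:**
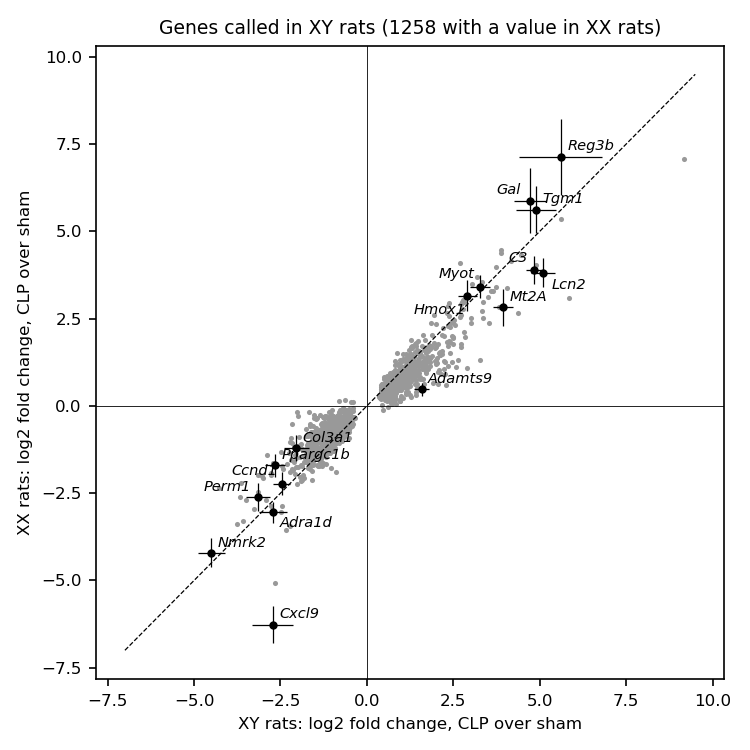
Each grey point is 1 of the 1258 genes called in XY rats that have a value in XX rats. The axes are the log2 fold change of CLP over sham in XY (horizontal) and XX (vertical) rats, black points are named genes with bars for the SE, and the dashed line marks equal change. All but 6 points lie on the same side of 0 in both sexes, and the test of the difference called 0 probes.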

How the data were processed

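Left-ventricle RNA of 32 rats was measured on 1-colour Agilent SurePrint G3 arrays. The deposited scanner files hold each spot's intensity, which the authors extracted with Agilent Feature Extraction 10.5 (per the labels and file headers). A second deposited file, the authors' log2 values after quantile normalisation and filtering, served as an alternative.

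The 16 arrays of XY rats (5 sham, 5 CLP, 6 CLP plus landiolol) were analysed together, and the contrast was CLP minus sham. Processed signals were taken to log2, outlier spots were left out (70 missing values), spots of a probe were averaged, and arrays were quantile-normalised. Probes were kept where 80% or more of the arrays in any of the groups had them well above background. limma 3.58.1 in R 4.3.3 with data.table (version 1.17.8) fitted the 3 groups with 1 estimate of the spread, and calls were made at an FDR of 1%. The fit was tested on simulated data. The interaction of sex and CLP was fitted over all 32 arrays at an FDR of 5%. A gene is described by its kept probe with the highest mean. Symbols came from newer annotation in the files (27510 of 45598 probes), the files' own names (796) or RefSeq (1101), and 16191 probes stayed unnamed. Coordinates of probes are those of the files (rn4).

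Genes named are those with the largest rises and falls among non-overlapping called genes, up to 4 members of each list by size, genes bright in only 1 group, and a set of cardiac and inflammatory genes taken whatever their values. Some genes that this rule or the lists hold are not reported here. Members and lists were chosen with earlier results of these data known, so lists carry no test. Alternatives were other scaling, background correction, filters, priors, array weights, slide as a term, the authors' values, SAM with 100 permutations, an FDR of 5% and each array left out. The number of arrays limits the precision. Each array is labelled as a separate rat, and p-values measure the spread between these samples. Each XY slide holds both groups.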

Additional observations from a re-analysis of the deposited data

Results flagged for a closer look

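In 27 of 366 groups of 5 values (genes and list means given above), the highest or lowest array stood further from the rest than Dixon's 95% limit, which chance exceeds in about 1 group in 20. CLP 1 was the array that stood apart most often. It was the lowest CLP array for Reg3b (12.05 against 14.76 to 15.29), Nppa (8.35 against 12.28 to 12.94), Il6 (7.84 against 9.61 to 10.26), Clec4a2 (8.42 against 8.84 to 8.91), Fga (2.07 against 4.62 to 5.47) and Atp2a2 (16.91 against 17.12 to 17.19). Its list means were also the lowest of the CLP group for acute-phase genes (1.80 against 2.38 to 2.59), for metallothionein, zinc and iron genes (0.39 against 0.78 to 0.80) and for translation factors (-0.029 against 0.25 to 0.33). CLP 3 was the lowest for Col1a1 (9.57 against 11.31 to 11.89) and Vcam1 (11.69 against 13.57 to 14.14) and the highest for Myot (12.97 against 11.86 to 12.14). CLP 4 was the highest for Wfdc21 (9.26 against 7.76 to 8.18) and Lbp (9.26 against 8.40 to 8.59).

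Among the sham arrays, sham 1 was the highest for Fgf2 (7.51 against 6.97 to 7.08) and Msr1 (6.13 against 4.95 to 5.25) and the lowest for Tfrc (10.02 against 11.05 to 11.34), Ppara (11.26 against 11.76 to 11.94), Mrpl34 (13.60 against 13.86 to 13.94) and the circadian clock list mean (-0.34 against 0.04 to 0.12). Sham 4 was the lowest for Scn2b (6.60 against 7.68 to 8.06), Tnnt2 (18.36 against 18.46 to 18.50) and Scgb2a2 (1.94 against 3.10 to 3.45). Sham 3 was the highest for Ctsl (14.46 against 13.81 to 13.97). Sham 5 was the highest for S100a8 (3.28 against 2.11 to 2.33) and the lowest for Lyz2 (13.01 against 13.35 to 13.49) and the neuron and Schwann cell list mean (-0.48 against 0.04 to 0.18). S100a8 and Scgb2a2 were well above background on no sham array.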

How the results depend on the processing

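The number of genes called, 1430, was within 1.5 times of itself under 75th percentile scaling (1487), normexp (1607), a filter on all 16 arrays (1386), no filter (1160), a trended prior (1571), slide as a term (1370), the authors' table (1470), SAM (1569) and 1 probe per gene (1284). It was 952 when only the 10 arrays were fitted, 2326 with array weights (0.372 for sham 1 and 0.414 for CLP 1) and 2819 at an FDR of 5%. With single arrays left out it ran from 950 to 1682. No gene was called in the opposite direction under any of these. Of 114 called genes named above, 98 stayed called under every alternative that tested them. Within 1 slide, some called values moved by more than 1.5 times and kept their sign, namely Abca1 (0.84), Bcat1 (0.71), Cd68 (0.53), Cfb (1.22), Fbn2 (-1.50), Jak2 (1.28), Cxcl9 (-4.87) and Kcnd3 (-0.60) on the first slide, and Ddit4 (1.03), Cxcl9 (-0.99) and Kcnd3 (-1.47) on the second. The interaction with sex gave 0 probes under each alternative run. No paired analysis was possible because the labels give no replicate numbers. For dim probes the size of the fold depends on the background correction, as the values given with normexp show. Sample titles carry a code that differs between all XY rats and may be a date. Chosen after seeing the data, a fit with that code, read as a date, as a linear term called 1352 genes and lost the calls of Fga and Kcnip2 among those named. The causes of the other changes were not tested.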
